A study of Drosophila melanogaster with 6 samples.

Results

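This account concerns the box C/D small nucleolar RNAs (snoRNAs) that guide ribose methylation, as they appeared in the RNA that copurified with the piRNA pathway protein Asterix (Gtsf1) in Drosophila OSS cells. The members were the features of class snoRNA whose name holds Me and a target RNA and does not hold Psi. The rule found 83 such features among 133537 in the series and among 260 of class snoRNA. By target, 58 were named for 28S rRNA, 22 for 18S rRNA, 1 for 5.8S rRNA and 2 for U6 snRNA, the catalytic RNA of the spliceosome. The rule used names only and no measured value, but it was chosen with earlier results of these data known. A further 10 features with Me in their names are annotated as scaRNAs, and older C/D names such as U14 and U31 carry no Me, so both kinds fell outside the rule.

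A box C/D snoRNA carries the short conserved C and D boxes, which fold together and are bound by the proteins fibrillarin, nop5 (Nop58), Nop56 and hoip (the fly 15.5K protein). A guide stretch beside the D box pairs with the target RNA, and fibrillarin then methylates the ribose of the paired target base. Most fly snoRNAs lie in introns of host genes and are freed when the spliced intron is trimmed. Host genes include ribosomal protein genes and the Uhg genes, whose spliced exons code for no known protein. In a name such as Me28S-A1322 the target RNA, the modified base and its position follow each other, and a trailing letter marks 1 of several copies for the same position.

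OSS cells are a cultured line of the somatic cells of the fly ovary. Asterix was expressed in these cells from its own promoter with the C-terminal tag GFP-FRT-Precission-V5-3xFLAG-P2A, and all groups share this tagged line. The 4 groups were crosslinked IP (UV light of 254 nm, then anti-FLAG beads, 2 libraries), crosslinked input (the same lysate treatment without the beads, 2 libraries), non-crosslinked IP (no UV, anti-FLAG beads, 1 library) and non-crosslinked input (no UV, no beads, 1 library). RNase I was added to every lysate, and eCLIP libraries were made from the RNA fragments that remained. No library without the tag, and no pull-down with another antibody, was analysed here. Nothing in the labels says that the crosslinked replicates came from separate cultures, so the p-values measure the spread between these libraries, which may be technical.

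The libraries held 9948299 and 8259354 reads in crosslinked IP, 15992638 and 11464862 in crosslinked input, 2619716 in non-crosslinked IP and 4194751 in non-crosslinked input. Levels are given as RPM, scaled to the annotated reads of each library, and 3 reads, taken as the floor, came to between 0.191 and 1.31 RPM. Ribosomal RNA took 73.2% and 76.0% of annotated reads in crosslinked IP, 77.7% and 79.6% in crosslinked input, 85.8% in non-crosslinked IP and 84.2% in non-crosslinked input. Markers of somatic ovarian cells were present, with 91 to 1190 reads per library for tj, a somatic gonad transcription factor. The marker piwi had 120 to 1707 reads, with 424 RPM in non-crosslinked input against 87.6 and 112 RPM in crosslinked input. For the piRNA cluster transcript flam, introns had 1618 to 29452 reads and the transcript annotation 4 to 70. The somatic marker Fas3 had 3 to 29. The germline markers vas, aub, AGO3, nos and bam had 0 to 9 reads per library.

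Of the 83 C/D snoRNAs, 72 matched a RefSeq gene of Drosophila Release 6 (dm6), 71 by symbol and 1 by synonym. The matched genes were 46 to 141 bases long, with a median of 79. They lay on chromosome arms 2R (31), 3L (21), 2L (8), 3R (8) and on X (4). The 11 without a match had at most 5 reads in any library. No sequence of the snoRNAs was held by the sources used here, so none is shown. Counts were whole in all 6 libraries for 40 features and fractional in some library for 43, of which 40 carry a copy letter. Reads of lettered copies were therefore partly shared between annotations, and their separate values are less certain than those of single-copy members.

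C/D snoRNAs took a larger share of the reads in crosslinked IP than in crosslinked input, and H/ACA snoRNAs, the family that guides pseudouridylation, a smaller one. The C/D share of annotated reads was 0.786% and 0.918% in crosslinked IP, against 0.649% and 0.618% in crosslinked input. The groups did not overlap, and the means of 0.852% ± 0.093 and 0.633% ± 0.022 (SD, n = 2 each) gave a ratio of 1.34. The H/ACA share was 1.76% and 2.31% in crosslinked IP, against 3.12% and 4.33% in crosslinked input, a ratio of 0.546. The snoRNA features outside both name rules had a ratio of 0.869. With 2 libraries against 2, an exact two-sided permutation test cannot go below p = 0.333, the value reached for both families.

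Since rRNA dominates the total, the C/D share was also taken over annotated reads without rRNA. It was then 3.27% and 3.43% in crosslinked IP, against 3.17% and 2.77% in crosslinked input, and the ratio was 1.13. The groups still did not overlap, but the difference was smaller.

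The number of C/D reads per H/ACA read does not depend on the library total. It was 0.446 and 0.398 in crosslinked IP, against 0.208 and 0.143 in crosslinked input, so the mean was 2.41 times as high in the IP (exact two-sided permutation p = 0.333, the smallest possible). Without crosslinking it was 0.493 in the IP against 0.167 in the input, a ratio of 2.95. The 2 snoRNA families were thus recovered unequally in the pull-down both with and without UV light.

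**Figure D1:**
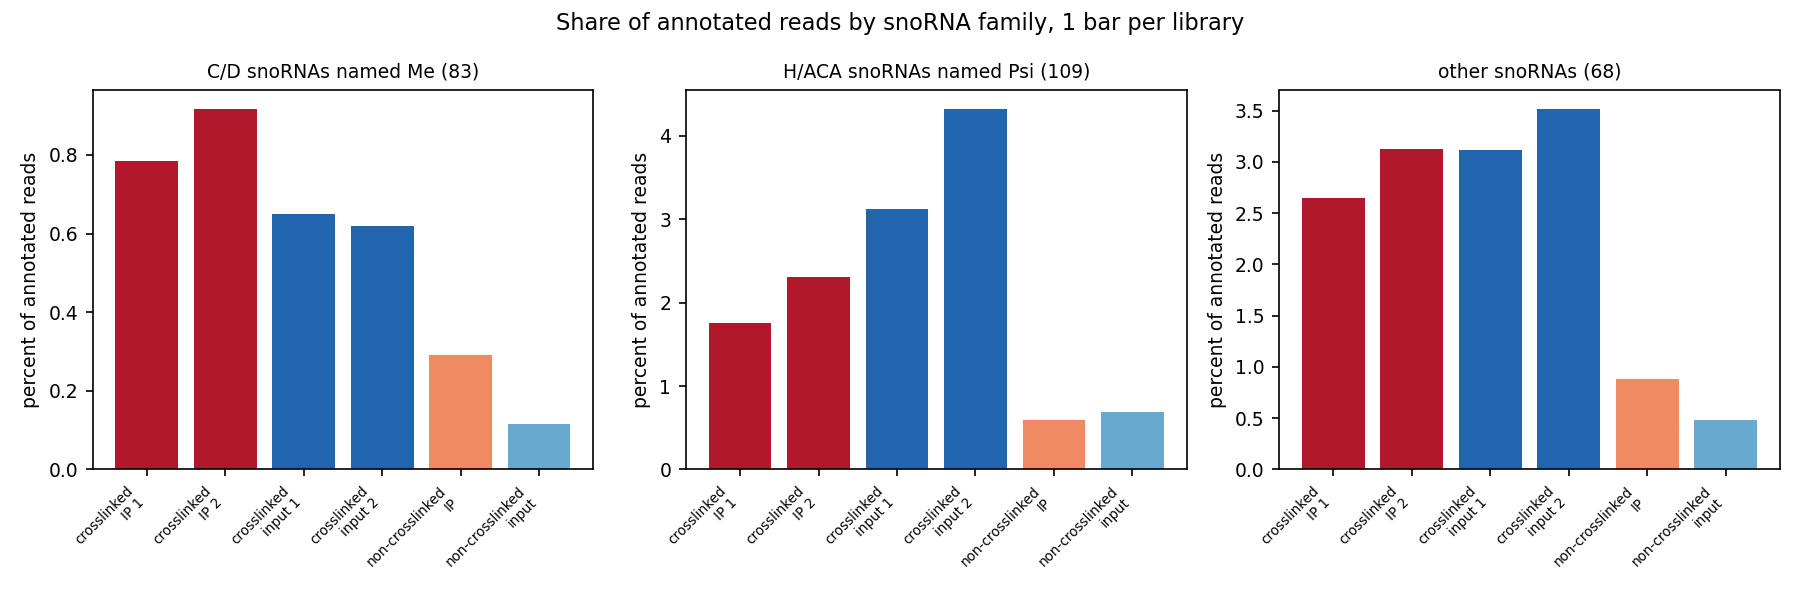
Share of annotated reads (percent, y axis) in 3 groups of snoRNA features, with 1 bar for each of the 6 libraries (x axis). For C/D snoRNAs both crosslinked IP bars, at 0.786% and 0.918%, stand above both crosslinked input bars, and for H/ACA snoRNAs both stand below them.

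The members were then tested one by one in edgeR's quasi-likelihood fit of crosslinked IP against crosslinked input, with Benjamini-Hochberg adjustment over all 17781 features that had a mean of at least 10 reads. The filter passed 71 of the 83 C/D snoRNAs. The 12 left out (8 named for 28S rRNA and 4 for 18S rRNA) had at most 5 reads in any library. At an adjusted p of 0.05, 45 of the 71 rose in crosslinked IP, 8 fell and 18 were not called. Over all features tested, 22.2% were called higher and 19.7% lower. The members had 63.4% higher and 11.3% lower, and their median log2 ratio was 0.60, against -0.05 over all features. The values of the 2 groups did not overlap for 63 of the 71, a pattern that 74.1% of all features showed.

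By the same fit, 7 of 103 tested H/ACA snoRNAs rose (6.80%) and 58 fell (56.3%). Of 59 other snoRNA features 25 rose (42.4%) and 19 fell (32.2%). Over all features tested, 22.2% were called higher and 19.7% lower. These lists were not compared by a test.

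Without rRNA in the library size, 32 C/D snoRNAs were called higher and 15 lower, where 15.6% of all features were called higher and 29.9% lower, and the median over all features moved to -0.31 while that of the members was 0.35. The 29 members with whole counts in every library had 18 called higher and 4 lower, which is 62.1% and 13.8%.

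Grouped by target, most guides of the large subunit rRNA rose in crosslinked IP, and guides of the small subunit rRNA lay on both sides of 0. Of the 50 tested 28S guides 37 rose and 4 fell, with a median log2 ratio of 0.78. Of the 18 tested 18S guides 7 rose and 2 fell. As shares, 74% of the 28S guides were called higher and 8% lower, and 38.9% and 11.1% of the 18S guides. Over all features tested, the shares were 22.2% and 19.7%. The median of the 18S guides was 0.01, and it was below 0 in 4 other settings, at -0.24 without rRNA in the library size, -0.23 without the filter, -0.23 with a minimum of 100 reads and -0.07 with counts summed per gene. As shares of annotated reads, the 28S guides had 0.639% and 0.753% in crosslinked IP against 0.487% and 0.453% in crosslinked input. The 18S guides had 0.142% and 0.160% in crosslinked IP against 0.153% and 0.155% in crosslinked input, where the groups overlap. The difference between the 28S and 18S guides was not tested.

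**Figure D2:**
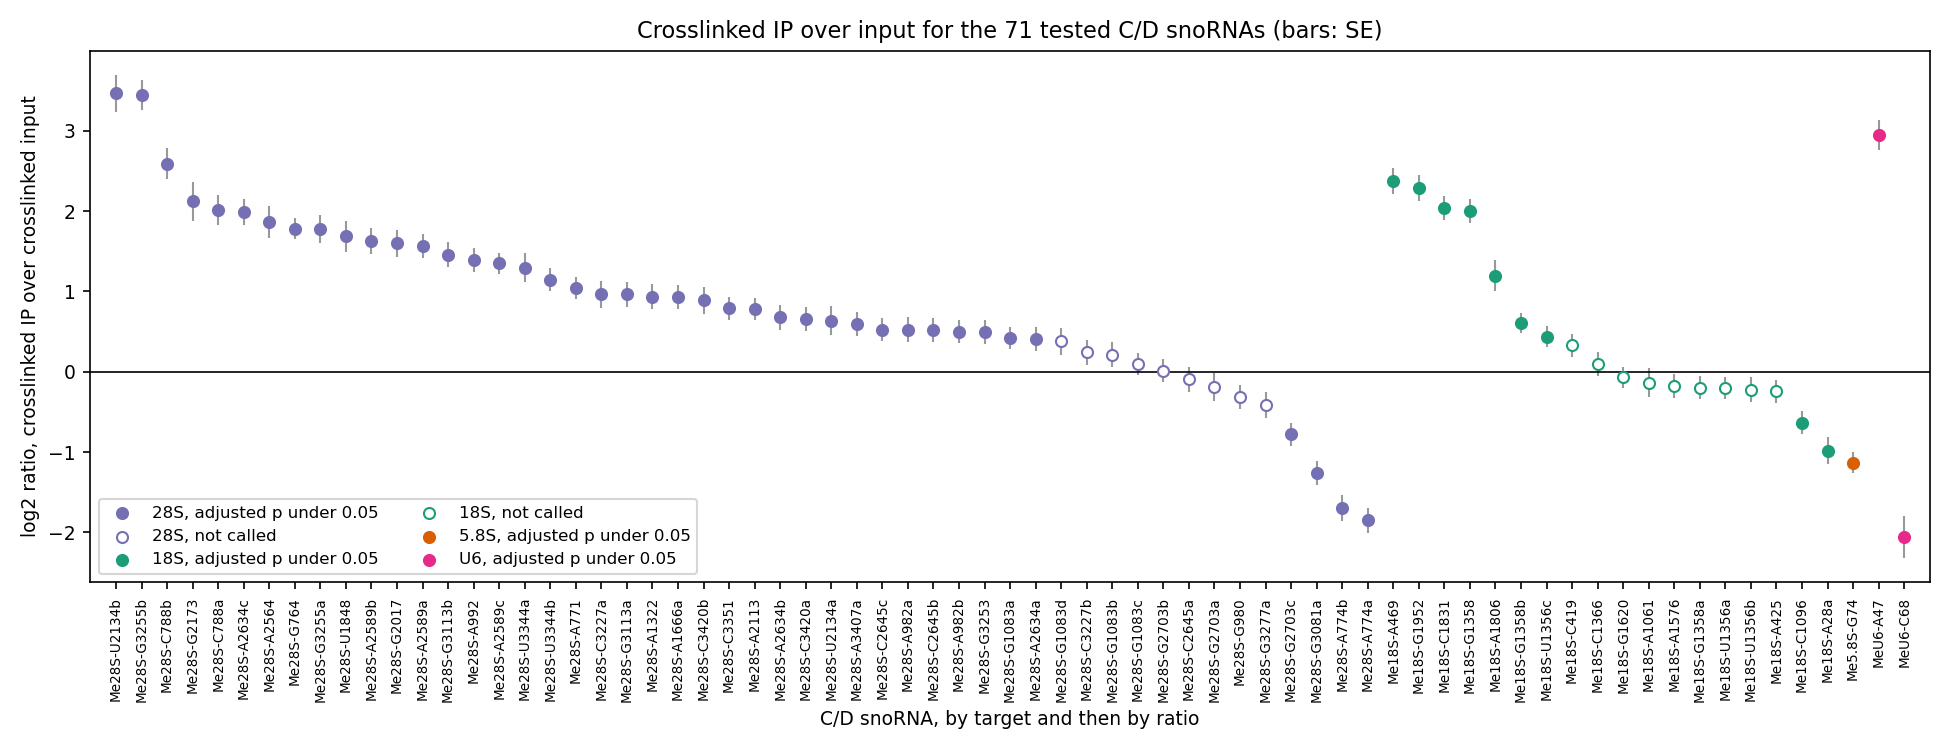
Log2 ratio of crosslinked IP over crosslinked input (y axis) for the 71 tested C/D snoRNAs (x axis), grouped by target RNA and sorted within each target. Bars are standard errors of the edgeR fit and filled points passed an adjusted p of 0.05. The 28S guides run between 3.46 and -1.85, while 9 of the 18 guides of 18S rRNA are not called.

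The most abundant guides were not those with the largest ratios. Me28S-A1322, in an intron of the translation factor gene eEF1alpha1, had 565.7 and 696.2 RPM in crosslinked IP, against 329.2 and 329.8 RPM in crosslinked input. It was the highest of all members in both crosslinked IP libraries, with 7.20% and 7.58% of the C/D reads. Its log2 ratio was 0.94 ± 0.16 (SE, adjusted p = 0.00141).

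Me28S-G3255a, from the non-coding host Uhg4, had 465.5 and 567.1 RPM in crosslinked IP, against 170.4 and 130.9 RPM in crosslinked input. Both IP libraries stood well above both inputs, and the log2 ratio was 1.78 ± 0.18 (SE, adjusted p = 4.2e-05). Me28S-G2703a, from Uhg5, had 267.0 and 345.0 RPM in crosslinked IP, against 391.9 and 305.2 RPM in crosslinked input. Its groups overlap, and it was not called (adjusted p = 0.432).

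Among the 18S guides, Me18S-C1366 of Uhg5 had 318.6 and 365.2 RPM in crosslinked IP, against 313.3 and 326.3 RPM in crosslinked input. The groups overlap, with a log2 ratio of 0.10 ± 0.15 (SE, adjusted p = 0.649), and the sign turned in 3 other settings. Me18S-C1096, from the ribosomal protein gene RpL3, had 250.8 and 260.9 RPM in crosslinked IP, against 396.8 and 397.9 RPM in crosslinked input, where it was the most abundant C/D snoRNA of both libraries. It fell by 0.63 ± 0.15 on the log2 scale (SE, adjusted p = 0.00748), a call lost without crosslinked IP replicate 1 or without crosslinked IP replicate 2. Me18S-A425, also from RpL3, had 122.1 and 132.1 RPM in crosslinked IP, against 159.5 and 142.3 RPM in crosslinked input, and did not pass the test (adjusted p = 0.195).

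The 10 most abundant members made up 41.3% and 43.1% of the C/D reads in crosslinked IP and 45.3% and 46.5% in crosslinked input, so the C/D share rested on many guides in each library. The calls were also counted by the level in the input. Of the 35 members below the median crosslinked input level, 28 rose and 2 fell, against 17 and 6 of the 36 at or above it. That is 80% higher and 5.71% lower below the median, and 47.2% and 16.7% at or above it. Over all features tested, the shares were 22.2% and 19.7%. Since the input is also the lower part of the ratio, the level in the non-crosslinked input, which the ratio does not use, was set beside it. Across the 71 members Spearman's rho with the log2 ratio was -0.655. It is given as a description, because reads of lettered copies were partly shared between annotations. With the length of the RefSeq gene rho was 0.035.

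The largest increase was that of Me28S-U2134b, a 28S guide from the ribosomal protein gene RpL13A on chromosome arm 3R. It had 157.4 and 176.6 RPM in crosslinked IP, against 19.2 and 10.9 RPM in crosslinked input. Every IP value lay above every input value, with a log2 ratio of 3.46 ± 0.23 (SE, adjusted p = 2.93e-06). Me28S-G3255b of Uhg4 had 44.1 and 53.5 RPM in crosslinked IP, against 5.39 and 3.43 RPM in crosslinked input, a log2 ratio of 3.45 ± 0.19 (SE, adjusted p = 9.12e-07). Both are the less abundant copy in the crosslinked input for a position that has a second guide.

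MeU6-A47 guides methylation of U6 snRNA and lies in Ddx56, a gene of an RNA helicase, on X between bases 21386845 and 21386935. It had 11.5 and 14.4 RPM in crosslinked IP, against 1.79 and 1.52 RPM in crosslinked input, a log2 ratio of 2.95 ± 0.19 (SE, adjusted p = 2.45e-06). The second U6 guide, MeU6-C68, went the other way, with 7.87 and 8.50 RPM in crosslinked IP against 25.8 and 42.8 RPM in crosslinked input. It fell by 2.06 ± 0.26 on the log2 scale (SE, adjusted p = 0.000217), the steepest fall of the 71 members in this fit. There were 1.46 and 1.70 reads of MeU6-A47 for each read of MeU6-C68 in crosslinked IP, against 0.0691 and 0.0354 in crosslinked input, so the order of the 2 U6 guides was opposite in IP and input.

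Me28S-C788b, from the gene of the splicing factor Sf3b3, had 93.6 and 81.7 RPM in crosslinked IP, against 17.4 and 11.6 RPM in crosslinked input (log2 ratio 2.59 ± 0.19 SE, adjusted p = 6.54e-06). Me18S-A469, from the gene pths, had 39.2 and 44.7 RPM in crosslinked IP, against 9.44 and 6.51 RPM in crosslinked input, a log2 ratio of 2.38 ± 0.16 (SE, adjusted p = 3.95e-06). Me18S-G1952 of Uhg5 had 44.3 and 50.9 RPM in crosslinked IP, against 11.2 and 8.12 RPM in crosslinked input, a log2 ratio of 2.28 ± 0.16 (SE, adjusted p = 4.1e-06). These 2 were the highest ratios among the 18S guides in this fit, and their IP and input values did not overlap.

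The steepest falls after MeU6-C68 were those of the copies for position A774 of 28S rRNA, both from the ribosomal protein gene RpS12 on chromosome arm 3L (bases 13023580 to 13024298). Me28S-A774a had 72.2 and 67.7 RPM in crosslinked IP, against 249.8 and 255.4 RPM in crosslinked input. Me28S-A774b had 86.5 and 83.1 RPM in crosslinked IP, against 257.1 and 293.2 RPM in crosslinked input. They fell by 1.85 ± 0.15 and 1.70 ± 0.16 on the log2 scale (SE, adjusted p = 1.2e-05 and 3.24e-05), and no IP value reached an input value.

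Me28S-G3081a of Uhg1 had 120.5 and 128.0 RPM in crosslinked IP, against 296.1 and 299.2 RPM in crosslinked input, and fell by 1.26 ± 0.15 on the log2 scale (SE, adjusted p = 0.000123). Me5.8S-G74, the sole guide named for 5.8S rRNA, had 23.8 and 26.9 RPM in crosslinked IP, against 54.7 and 56.6 RPM in crosslinked input, and fell by 1.13 ± 0.13 (SE, adjusted p = 0.000142). Me18S-A28a of Uhg1 had 56.3 and 65.7 RPM in crosslinked IP, against 107.4 and 133.1 RPM in crosslinked input, and fell by 0.98 ± 0.17 (SE, adjusted p = 0.0014). The remaining call in this direction was Me28S-G2703c of Uhg5, which fell by 0.78 ± 0.14 (SE, adjusted p = 0.00178). The 8 members that fell thus included guides of all 4 target RNAs.

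**Figure D3:**
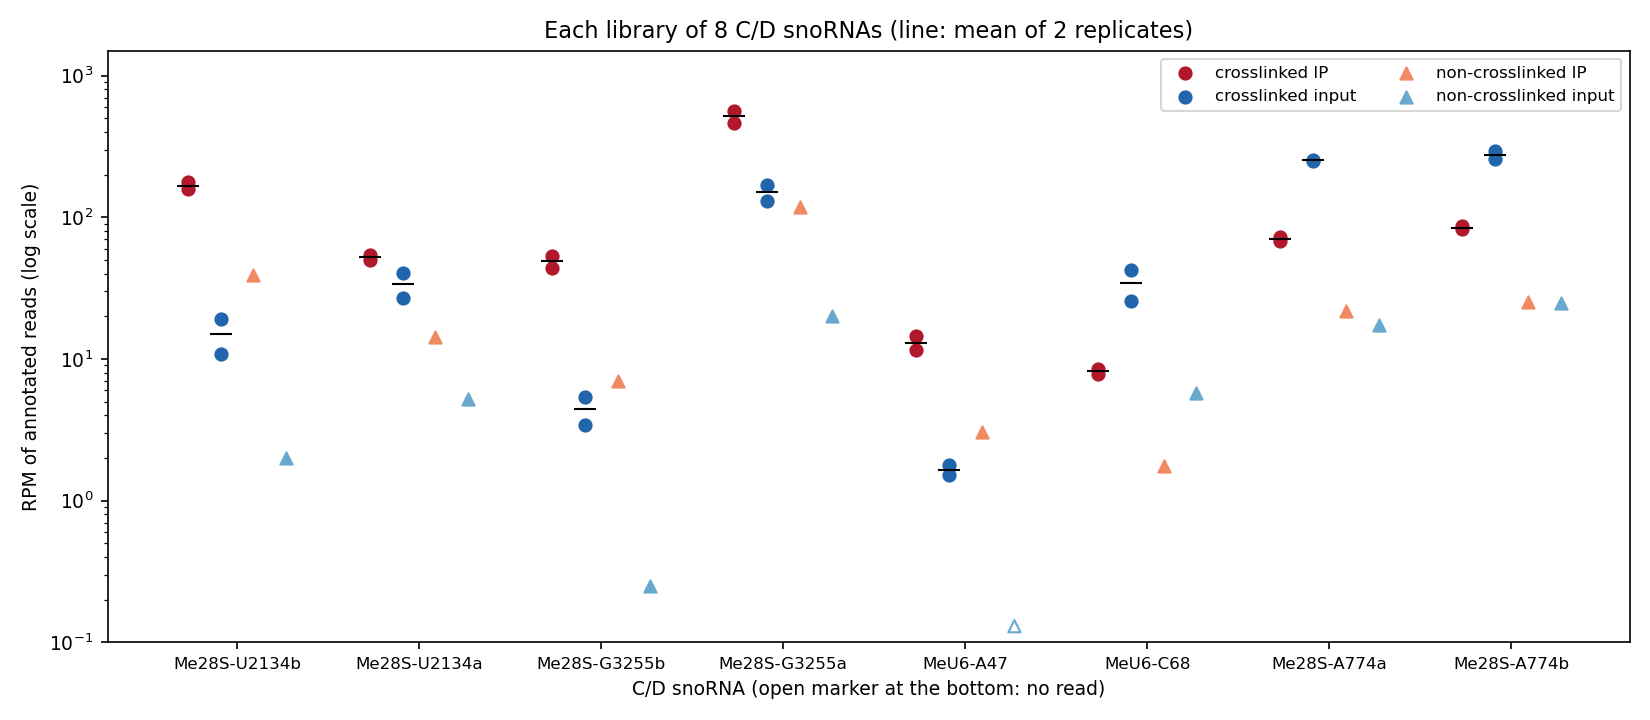
Level of 8 C/D snoRNAs in each library (y axis, RPM of annotated reads on a log scale), with circles for crosslinked and triangles for non-crosslinked libraries, and lines at the mean of the 2 crosslinked replicates. Me28S-U2134b stands at 157.4 and 176.6 RPM in crosslinked IP, far above its crosslinked input values, while both Me28S-A774 copies stand below theirs.

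SnoRNA genes that lie in introns of 1 host are transcribed with it as 1 precursor. Hosts were assigned by position alone, as a RefSeq gene whose span holds the snoRNA gene, since the table gives no strand. Where several genes held a member, a Uhg gene was taken first, then a ribosomal protein gene, then another gene. The members counted under Uhg7, for example, also lie within the span of RpL23A. Of the 71 tested members, 30 lay in Uhg genes (16 higher, 3 lower, median log2 ratio 0.42). Ribosomal protein genes held 18 (12 higher, 3 lower, median 0.72) and other genes 22 (16 higher, 2 lower, median 1.09). In that order the classes had 53.3%, 66.7% and 72.7% higher and 10%, 16.7% and 9.09% lower. Over all features tested, 22.2% were called higher and 19.7% lower. Me18S-A1806 alone had no host, and its log2 ratio was 1.20 ± 0.19 (SE, adjusted p = 0.00105). The difference between the host classes was not tested.

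Members of 1 host often differed from each other by more than their standard errors. Uhg5 held 10 members, of which 4 rose, 1 fell and 5 were not called, between 2.28 for Me18S-G1952 and -0.78 for Me28S-G2703c. There were 1.16 and 1.12 reads of Me18S-G1952 per read of Me28S-G2703c in crosslinked IP, against 0.158 and 0.112 in crosslinked input. In Sf3b3 (chromosome arm 3L, bases 827075 to 830511), all 5 of the 28S guides rose and Me5.8S-G74, which lies among them, fell. The span of the gene lncRNA:CR45184 also holds Me5.8S-G74 and the other 28S guides there, but not Me28S-A771. Me28S-A771, the neighbour of Me5.8S-G74, had 4.97 and 4.83 reads per read of Me5.8S-G74 in crosslinked IP, against 1.11 and 1.07 in crosslinked input. A ratio within a library shows unequal recovery of the 2 RNAs and does not depend on the scaling.

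Uhg1 held 5 members, of which Me28S-A1666a and Me28S-A3407a rose, Me28S-G3081a and Me18S-A28a fell, and Me28S-G3277a was not called. For Me28S-A3407a the call was lost in 3 of 13 alternative fits. In RpL3, Me28S-G2017 rose by 1.60 ± 0.16 on the log2 scale (SE, adjusted p = 5.47e-05) while Me18S-C1096 fell, and Me28S-G2017 had 0.501 and 0.439 reads per Me18S-C1096 read in crosslinked IP, against 0.114 and 0.0865 in crosslinked input. Some hosts were uniform in this fit, since all 4 members of Uhg4, all 3 of Uhg7 and all 3 of dom (a chromatin remodeller) rose. Of these, Me28S-A982a and Me28S-A982b of Uhg4 and Me28S-A2634a and Me28S-A2634b of Uhg7 lost the call without crosslinked IP replicate 2, and also without rRNA in the library size. Of the 13 alternative fits, the call was lost in 10 for Me28S-A2634a, 7 for Me28S-A982b, 5 for Me28S-A982a and 3 for Me28S-A2634b, whereas the members of dom kept it in each alternative fit that tested them. Neither member of Uhg2 was called.

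**Figure D4:**
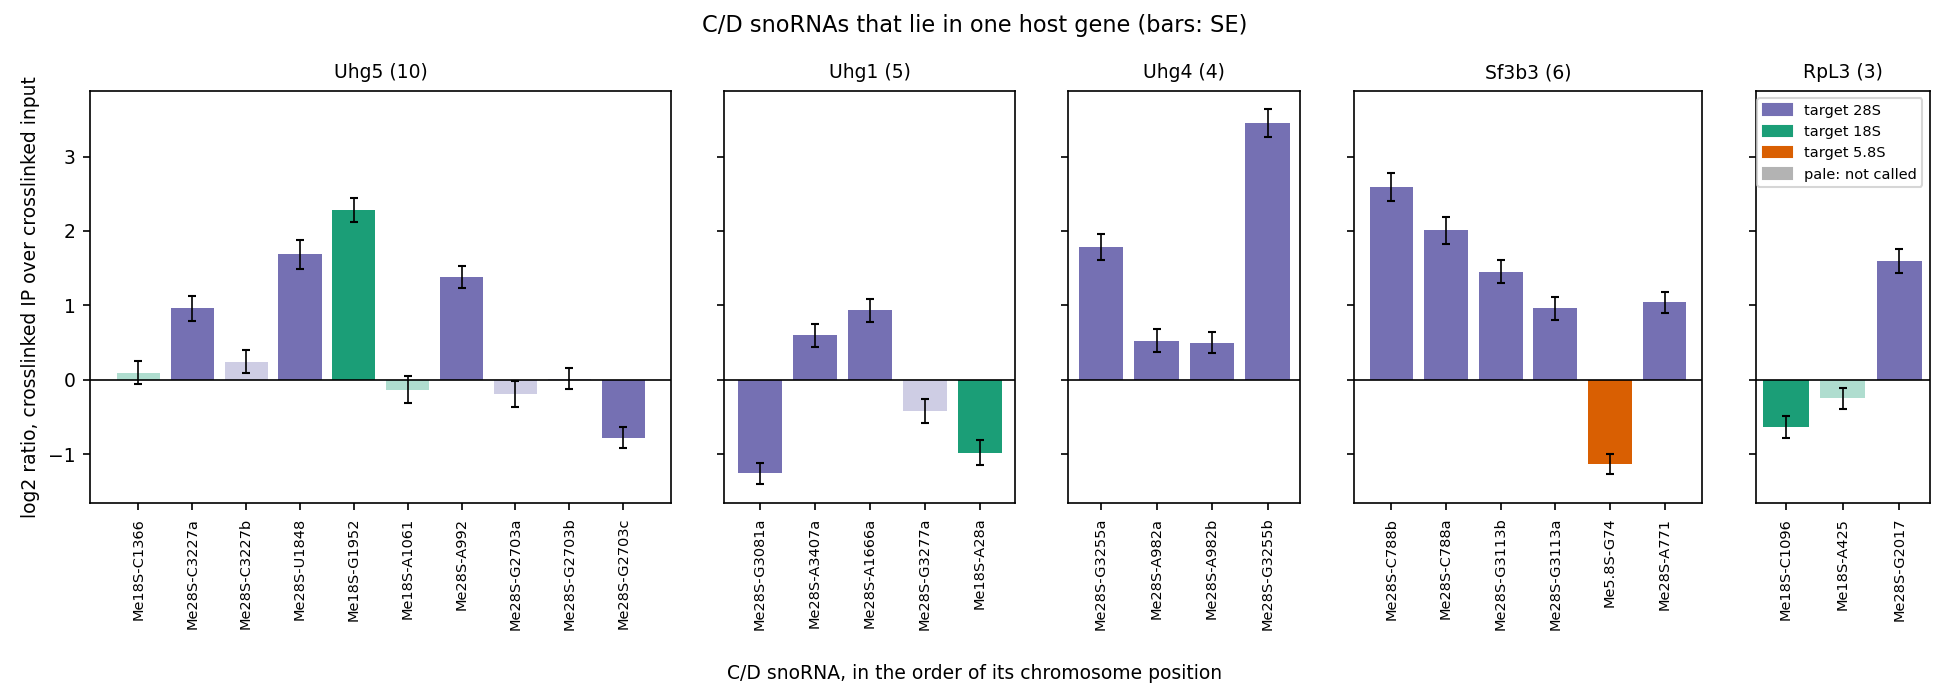
Log2 ratio of crosslinked IP over crosslinked input (y axis) for the C/D snoRNAs of 5 host genes, in the order of their chromosome positions (x axis). Bars show the standard error, colours the target RNA and pale bars members that were not called. Me5.8S-G74 points down between 28S guides of Sf3b3 that point up, and Uhg5 runs from 2.28 to -0.78.

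The other RNA of the host genes did not always move with its snoRNAs. Features were summed per gene and part for a fit in which 21.2% of 8791 items were higher and 20.4% lower. In it 15 of 23 tested host exon sets rose and 2 fell, and 9 of 19 host intron sets rose and 2 fell. The exon sets include the transcript annotations of the Uhg genes. The hosts Arf1, Ddx56, drn and pths are not among these sets. Exon reads of RpS12 had 25.2 and 26.4 RPM in crosslinked IP, against 14.3 and 9.63 RPM in crosslinked input, and rose by 1.01 ± 0.16 on the log2 scale (SE, adjusted p = 7.49e-05), whereas both of its snoRNAs fell. The Uhg4 transcript had 140.8 and 197.0 RPM in crosslinked IP, against 226.4 and 347.1 RPM in crosslinked input, and fell by 0.85 ± 0.21 (SE, adjusted p = 0.0037), whereas its C/D snoRNAs rose as given above. Introns of RpL13A, the host of the member with the largest increase, rose by 3.80 ± 0.27 (SE, adjusted p = 1.23e-08). These introns had 126 and 82 reads in crosslinked IP against 17 and 5 in crosslinked input, so this ratio rests on few input reads. Me28S-U2134b had 1479 and 1371 reads in crosslinked IP, so the introns did not hold the reads of that snoRNA in full. Whether intron counts hold a part of the reads of the snoRNAs within them is not given in the sources used here.

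Lettered copies pair with the same stretch of rRNA. Positions with 2 or more tested copies numbered 16, with 40 members in all. Within a position the log2 ratios differed by 0.02 to 2.83, with a median of 0.60, and at 4 positions by more than 1. At no position was 1 copy called higher and another lower. At each of these positions some copy had fractional counts in some library, so reads were partly shared with other annotations and these differences are uncertain. Both copies at U2134 of 28S rRNA had whole counts in the crosslinked libraries and fractional ones in non-crosslinked IP.

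The widest gap was at U2134 of 28S rRNA (RpL13A, chromosome arm 3R, bases 5625178 to 5625441). Me28S-U2134a had 50.3 and 54.6 RPM in crosslinked IP, against 40.6 and 26.9 RPM in crosslinked input. Its log2 ratio was 0.64 ± 0.18 (SE, adjusted p = 0.0167), a call lost in 3 of 13 alternative fits. Per read of the a copy, the b copy had 3.13 and 3.23 reads in crosslinked IP, against 0.473 and 0.405 in crosslinked input. The b copy was therefore the more abundant in the IP and the less abundant in the input. At G3255 of 28S rRNA, the b copy had 0.0948 and 0.0944 reads per read of the a copy in crosslinked IP, against 0.0316 and 0.0262 in crosslinked input.

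At G1358 of 18S rRNA, Me18S-G1358 of RpL15 rose by 2.00 ± 0.15 on the log2 scale (SE, adjusted p = 7.72e-06), while Me18S-G1358a of the gene drn had 31.60 and 34.04 RPM in crosslinked IP, against 35.12 and 40.37 RPM in crosslinked input, and did not pass the test (adjusted p = 0.291). At A2634 of 28S rRNA (Uhg7), the c copy had 2.24 and 2.55 reads per read of the a copy in crosslinked IP, against 0.767 and 0.854 in crosslinked input. The copies at A982, A774, U3344 and C3420 of 28S rRNA lay closest together, with differences of 0.02 to 0.23 on the log2 scale.

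Transcripts that code for the snoRNP proteins were read from a short list, chosen with earlier results of these data known. Of the 4 proteins of the C/D particle, exon reads of hoip rose by 0.72 ± 0.25 on the log2 scale (SE, adjusted p = 0.027), and exon reads of Fib, nop5 and Nop56 had log2 ratios of -0.09, -0.29 and -0.04 and were not called. Intron reads of Fib, which were fewer, rose by 1.501 ± 0.279 (SE, adjusted p = 0.000397). Of the assembly factors, Nopp140 (a nucleolar chaperone) fell by 0.93 ± 0.14, pont by 0.78 ± 0.25 and rept by 1.07 ± 0.20 (SE, adjusted p = 5.51e-05, 0.0207 and 0.000458), where pont and rept are the paired ATPases of the assembly machinery, and Nufip was too low to be tested. Of the H/ACA proteins, exon reads of Nop60B, the pseudouridine synthase, rose by 0.64 ± 0.14 (SE, adjusted p = 0.00161). Its intron reads went the other way, with 121.0 and 174.3 RPM in crosslinked IP against 330.6 and 433.3 RPM in crosslinked input, and fell by 1.46 ± 0.20 (SE, adjusted p = 1.78e-05). Nop60B is itself the host of the 4 copies for G1083 of 28S rRNA, of which Me28S-G1083a rose, a call lost in 9 of 13 alternative fits, and 3 were not called. By exon reads, of all 10 tested genes of these lists 2 rose and 3 fell, a share near the 21.2% and 20.4% of all summed items.

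The non-crosslinked libraries gave the recovery of the same snoRNAs on the beads without UV light. The C/D share was 0.292% (95% Wilson interval 0.285 to 0.299) in non-crosslinked IP, against 0.115% (0.111 to 0.118) in non-crosslinked input, a ratio of 2.55, and these intervals cover counting error only. Of the 71 members 67 had a positive log2 CPM difference in this pair, where 32.5% of all features had one, and 48 were above 1, where 12.3% of all features were. A difference below -1 was found for 2 members, where 34.3% of all features had one. The median was 1.85, against -0.54 over all features. With 1 library per group no test was made. C/D snoRNAs were thus recovered above input without crosslinking as well.

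For Me28S-U2134b the levels were 39.2 RPM in non-crosslinked IP and 1.99 RPM in non-crosslinked input, a ratio of 19.7 (95% exact interval 9.64 to 47.3). Me28S-G3255b had 16 reads in non-crosslinked IP and 1 read in non-crosslinked input, a ratio of 28.2 with an interval of 4.38 to 1183. MeU6-A47 had 7 reads in non-crosslinked IP and none in non-crosslinked input, which is at least 4.11-fold higher with the floor of 3 reads in place of 0 in the input library, while the lower end of its exact interval was 2.54. The members with the largest crosslinked ratios were thus also above input without crosslinking, with wide intervals for those of few reads.

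Across the 71 members the log2 CPM differences of the crosslinked and non-crosslinked pairs, which share no library, had Pearson's r of 0.827 and Spearman's rho of 0.828, given as a description because copies share reads. The crosslinked difference was smaller than the non-crosslinked one for 65 of the 71, where 33.7% of all features had that order. The median of crosslinked less non-crosslinked was -0.92 for the members, against 0.51 for all features. H/ACA snoRNAs and the other snoRNA features had negative medians too, of -0.74 and -1.13. In the inputs, the C/D share was 5.53 times as high with crosslinking as without, and in the IPs 2.92 times. These ratios were 5.43 and 3.43 for H/ACA snoRNAs and 6.89 and 3.27 for the other snoRNA features, so C/D snoRNAs were not alone in this. Member by member, 70 of the 71 were above 1 on the log2 CPM scale in crosslinked over non-crosslinked input, where 23% of all features were, and 65 in crosslinked over non-crosslinked IP, where 52.8% were. The members therefore differed between the crosslinked and the non-crosslinked input more than they did between the IPs. Crosslinked and non-crosslinked inputs also differed in depth, and 15 of the 71 members had fewer than 10 reads in the non-crosslinked input.

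**Figure D5:**
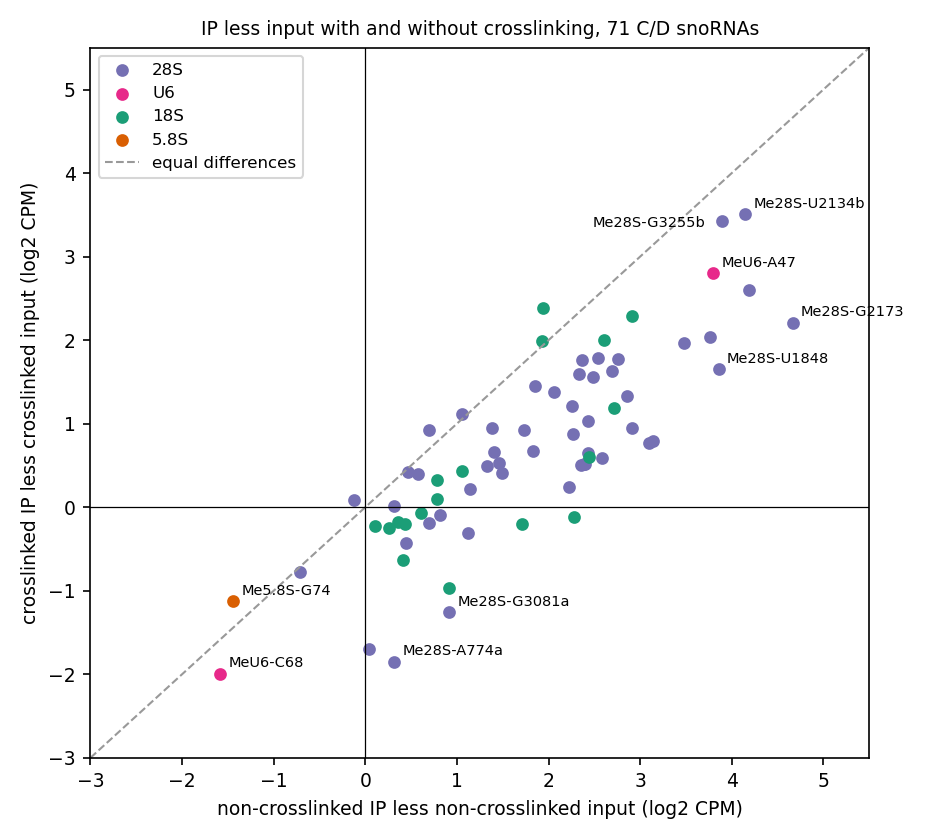
Log2 CPM difference of IP less input without crosslinking (x axis) and with crosslinking (y axis) for the 71 tested C/D snoRNAs, coloured by target RNA, with a dashed line where both are equal. Of the points, 65 lie below the dashed line, and 16 lie in the lower right, above 0 without crosslinking and below 0 with it.

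The sign of the difference was the same in both pairs for 54 members, of which 51 were above input and 3 below it (Me5.8S-G74, MeU6-C68 and Me28S-G2703c). For 16 members the crosslinked difference was below 0 and the non-crosslinked one above it, and for Me28S-G1083c it was the other way round. For 12 of the 16 all 4 crosslinked pairs lay below 0 (16.9% of the members), where 7.72% of all features showed that pattern. The pattern needs a non-crosslinked pair above 0, which 67 of the 71 members but 32.5% of all features had. The 2 shares are therefore not on equal terms. The 4 widest gaps with opposite signs were those of Me18S-A1061 of Uhg5, Me28S-G3081a, Me28S-A774a and Me18S-G1358a. Me18S-A1061 had 79.7 and 70.1 RPM in crosslinked IP against 98.2 and 67.3 RPM in crosslinked input, which overlap, and 29.8 RPM in non-crosslinked IP against 5.96 RPM in non-crosslinked input. Me28S-G3081a, which fell with crosslinking, had 151.1 RPM in non-crosslinked IP against 80.0 RPM in non-crosslinked input, a ratio of 1.89 (95% exact interval 1.62 to 2.21). Me28S-A774a had 21.9 RPM in non-crosslinked IP against 17.5 RPM in non-crosslinked input, a ratio of 1.25 with an interval of 0.858 to 1.84 that holds 1. Me18S-G1358a had 12.7 RPM in non-crosslinked IP against 3.73 RPM in non-crosslinked input.

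In the authors' deposited table, which gives 1 ratio per feature for the 6 libraries together by a formula that is not given in the sources used here, 67 of the C/D snoRNAs were listed. Of these ratios in the authors' deposited table, 34 were above 1 and 33 below 1, with a median of 1.12, against 1.36 over all 39941 features listed. The highest ratio of a member in the authors' deposited table was 9.33, for Me28S-U2134b, and the lowest was 0.0784, for Me28S-A774a. Me28S-A2113, chosen after its values were seen, had 0.0876 in the authors' deposited table, while it rose by 0.78 on the log2 scale in crosslinked IP in the edgeR fit (adjusted p = 0.00159) and had a ratio of 9.05 between non-crosslinked IP and non-crosslinked input. Other members called higher by edgeR also had deposited ratios below 1, among them Me28S-U1848 (0.761), Me28S-C788a (0.679) and Me28S-C3227a (0.814). The members called lower all had deposited ratios below 1. MeU6-A47 was not listed there. Over these 67 members the ratios of the authors' deposited table and the log2 ratios of the edgeR fit had Spearman's rho of 0.787, as a description of 2 measures made from the same libraries.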

How the data were processed

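The eCLIP files of the 6 libraries hold, per annotated feature, an estimated count and an RPM value that the authors deposited, and features that a file does not list were set to 0. The deposited RPM is scaled to all reads of a library, unannotated ones included, checked to within 1e-05, whereas RPM in the text is scaled to annotated reads alone. A table of 1 ratio per feature was also deposited by the authors. Per the submitters' processing notes, bcl2fastq 2.19, STAR 2.5.2b, bedtools 2.29.0 and the builds mm10 and dm6 were used, with their roles not given. The handling of PCR duplicates and of strand is not given in the sources used here. Unannotated reads (5.54% and 5.99% in crosslinked IP, 1.98% and 2.22% in crosslinked input, 12.9% in non-crosslinked IP, 4.07% in non-crosslinked input) were left out of library sizes and tests.

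Estimated counts were rounded, features with a mean of at least 10 over the 4 crosslinked libraries were kept (17781), and edgeR 4.0.16 (R 4.3.3) was run with TMM scaling, a quasi-likelihood test and Benjamini-Hochberg adjustment at 0.05, with limma 3.58.1 and DESeq2 1.42.0 as alternatives. Standard errors come from the log2 ratio and its F statistic. On simulated counts for this comparison the fit recovered 84% of 200 features changed 4-fold among 17781, with 7 false calls. The spread in the simulation was a set value, not estimated from these libraries, and only those 200 features were changed. These values are therefore not the error rates of the reported calls. Pairs with a non-crosslinked library were compared on log2 CPM (prior count 2) with no test. Intervals are at 95% and cover counting error only. Counts of replicate libraries varied beyond sampling noise (chi-square per degree of freedom 2.97 for crosslinked IP and 3.54 for crosslinked input), so none was counted as a duplicate.

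The members, the gene lists and the tests were chosen with earlier results of these data known. Members were named by a rule: the 3 most abundant per target (all where a target has 5 or fewer), the 6 largest increases and 6 largest decreases among calls, and the 4 widest gaps of opposite sign between the crosslinked and non-crosslinked pairs. A further part, lettered copies called in different directions, was met by none. Other members, named for their host or copies, were chosen after their values were seen. Coordinates are those of RefSeq for Drosophila Release 6. Figures were drawn with matplotlib 3.10.9.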

Additional observations from a re-analysis of the deposited data

Results flagged for a closer look

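For 12 C/D snoRNAs all 4 crosslinked IP and input pairs lay below 0 while the non-crosslinked pair lay above 0. That is 16.9% of the 71 tested, against 7.72% of all features. These 2 shares are not on equal terms, since 67 of the 71 members but 32.5% of all features had a non-crosslinked pair above 0. The difference was not tested, since each non-crosslinked group has 1 library. Of the 12, 5 were called lower with crosslinking by edgeR. Their log2 CPM differences were -1.85 with crosslinking and 0.32 without for Me28S-A774a, -1.69 and 0.039 for Me28S-A774b, -1.26 and 0.92 for Me28S-G3081a, -0.97 and 0.92 for Me18S-A28a, and -0.63 and 0.41 for Me18S-C1096.

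The other 7 did not pass the test with crosslinking. Those named for 28S rRNA were Me28S-G980, with -0.31 with crosslinking and 1.12 without, and Me28S-G3277a, with -0.42 and 0.44. Those named for 18S rRNA were Me18S-G1358a with -0.20 and 1.71, Me18S-G1620 with -0.07 and 0.61, Me18S-U1356a with -0.21 and 0.43, Me18S-A1576 with -0.18 and 0.36, and Me18S-A425 with -0.25 and 0.26. The median difference of all features was -0.05 with crosslinking and -0.54 without.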

How the results depend on the processing

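Of the 53 calls, 39 (32 higher, 7 lower) were kept in every one of the 13 alternative fits that tested them, and none of the 53 changed sign (a minimum of 100 reads left 66 members to test). The 45 higher and 8 lower calls of 71 (all features 22.2% and 19.7%) became 32 and 14 of 66 with a minimum of 100 reads (37.7% and 36.7%), 33 and 14 of 82 without a filter (4.56% and 4.95%), 32 and 15 of 71 without rRNA in the library size (15.6% and 29.9%), and 40 and 8 of 71 with DESeq2 (12.9% and 7.31%). Lower calls were thus below the share of all features in the edgeR fit of the report and above it without a filter and with DESeq2. With 1 library left out, the median log2 ratio of the members was 0.53 to 0.70, against -0.04 to -0.02 over all features. With the replicate number as a block the counts were 47 higher and 9 lower of 71, where 23.1% and 21.3% of all features were called. Same-numbered libraries deviated together with r = 0.0363 over 17781 features. This value cannot tell whether they were paired, since features of few reads, where counting noise is large, are included. Members without shared reads, chosen after the data were seen, had 18 higher and 4 lower calls of 29. Among uncalled members the log2 ratio changed sign without rRNA in the library size, without a filter and with a minimum of 100 reads for Me18S-C1366 (-0.16, -0.15, -0.067), Me28S-G1083c (-0.16, -0.15, -0.065) and Me28S-G2703b (-0.24, -0.23, -0.15, -0.070 summed per gene, and -0.0024 to 0.036 with 1 library left out), and in the first 2 of these for Me28S-C3227b (-0.0090, -0.00052) and Me28S-G1083b (-0.053, -0.037). With 1 library left out it was -0.35 to 0.13 for Me18S-A1061, positive without crosslinked input replicate 1, and -0.24 to 0.073 for Me28S-C2645a, positive without crosslinked input replicate 2 (0.054) or crosslinked IP replicate 1. The share ratio of 1.34 was 1.13 without rRNA, and 1.24 to 1.45 with 1 library left out. The C/D per H/ACA ratio of 2.41 was 2.03 to 2.96 with 1 library left out. The median of crosslinked less non-crosslinked, -0.92, was -1.32 without rRNA, -1.34 with TMM over 6 libraries (chosen after the data were seen), and -1.04 to -0.78 with 1 library left out. The cause of these changes was not tested. Depth limits the non-crosslinked pair, where 55 of 71 members had at least 10 reads in both libraries.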
